A study of Mus musculus with 3 samples.

Results

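The granule protease genes of basophils Prss34, Mcpt8 and Cpa3, were followed through spleen cells of lupus-prone and angiotensin II-treated mice, with the question of whether Prss34 molecules counted in B cells came from those cells or from free RNA. The members were the 3 rows with these names among the 32285 genes of the count tables. The genes had been picked from earlier values of these same libraries, so their levels are a description.

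Basophils are rare granulocytes that carry the high-affinity IgE receptor and release histamine, interleukin-4 and proteases when it is cross-linked. Prss34 (ENSMUSG00000056399) encodes a tryptase known as mouse mast cell protease 11, and Mcpt8 (ENSMUSG00000022157) encodes mouse mast cell protease 8. Both are typical of mouse basophils. Cpa3 (ENSMUSG00000001865) encodes carboxypeptidase A3, a granule enzyme that mast cells and basophils share. B cells are not known for any of these proteases, and in droplet sequencing a barcode can also catch RNA that leaked from other cells into the suspension.

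The libraries were 10x Genomics 5′ single-cell libraries of splenocytes from mice labelled 12 to 14 weeks old, after T cells had been depleted with CD3 microbeads. Each library pooled 2 conditions of 3 mice each. The C57BL/6 control library held sham-treated male mice, given pumps at 10 weeks of age for 2 weeks, and female mice. The C57BL/6 Ang II library held mice whose pumps delivered angiotensin II (490 ug/kg/min as labelled) from the same age, with or without 2HOBA (2-hydroxybenzylamine, a scavenger of isolevuglandins). The B6.SLE123 library held mice of this lupus-prone congenic strain, with or without 2HOBA for 6 weeks from 7 weeks of age. No label tied the 6 hashtags (antibody tags, C0301 to C0306) to a condition, so hashtag populations were not compared as conditions and are given as unassigned samples. With 1 library per group there was no replicate and no test. Strain, treatment and library cannot be told apart. Sex moved with them in part: Xist, the X-inactivation RNA of female cells, had a UMI in 0.161% to 0.387% of the B cells of 3 control hashtags and in 53.2% to 54.9% for the other 3, compared with 0% for every Ang II hashtag and 50.3% to 61.4% for those of B6.SLE123. Its part in the basophil values was not tested. The intervals given are exact 95% intervals that cover counting error only.

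The libraries held 18218, 16062 and 20691 barcodes (control, Ang II and B6.SLE123, the order used throughout) with 44146350, 59043555 and 63516694 gene UMIs (unique molecular identifiers, 1 per captured RNA molecule). Kept cells, which had over 200 and under 3500 genes, under 15% mitochondrial UMIs and no more than 1 hashtag, numbered 15700, 14017 and 16702. Kept libraries shared 304 (control and Ang II), 349 (control and B6.SLE123) and 334 (Ang II and B6.SLE123) barcode sequences. Of the 11 B6.SLE123 barcodes richest in Prss34, 1 recurred among control barcodes and 1 among those of Ang II, with 0 Prss34 UMIs there. B cells, set by at least 2 UMIs of Cd79a (a signalling chain of the B cell receptor), numbered 12969, 11385 and 13027. Basophils, set by at least 3 UMIs summed over Gata2, Ms4a2, Cpa3 and Cd200r3 and under 2 of Cd79a, numbered 34, 23 and 28, or 0.217%, 0.164% and 0.168% of kept cells. A further 3, 2 and 1 cells met both rules, and 2694, 2607 and 3646 cells met neither.

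The upstream sequences of the 3 genes are shown because Prss34 and Mcpt8 UMIs lay in the same barcodes below. They are the bases before the annotated start, 5′ to 3′, from RefSeq on GRCm38.p6. Capitals mark AGATAA on either strand, the letters bound by GATA factors, of which Gata2 is the one basophils and mast cells depend on. Prss34 lies on chromosome 17 (25298394 to 25300165, plus strand, 5 exons), Mcpt8 on chromosome 14 (56082166 to 56085273, minus strand, 5 exons) and Cpa3 on chromosome 3 (20215620 to 20242181, minus strand, 11 exons), per GENCODE vM21. For Mcpt8 the 174 bases outside the GENCODE gene are printed of the 250 searched.
Prss34, chr17:25298144-25298393, plus strand: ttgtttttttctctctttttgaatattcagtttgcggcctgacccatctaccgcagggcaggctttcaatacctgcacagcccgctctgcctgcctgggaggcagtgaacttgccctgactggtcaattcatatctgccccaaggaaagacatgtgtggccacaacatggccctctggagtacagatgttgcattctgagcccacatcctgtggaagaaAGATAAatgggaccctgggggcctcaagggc
Mcpt8, chr14:56085274-56085447, minus strand: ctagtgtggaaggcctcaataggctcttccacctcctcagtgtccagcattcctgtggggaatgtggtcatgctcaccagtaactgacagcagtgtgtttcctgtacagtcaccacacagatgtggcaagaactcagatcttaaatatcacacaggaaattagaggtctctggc
Cpa3, chr3:20242182-20242431, minus strand: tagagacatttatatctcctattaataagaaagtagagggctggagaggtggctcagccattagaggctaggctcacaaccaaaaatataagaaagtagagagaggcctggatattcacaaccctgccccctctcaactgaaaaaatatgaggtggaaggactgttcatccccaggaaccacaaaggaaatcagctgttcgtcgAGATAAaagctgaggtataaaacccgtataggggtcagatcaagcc
The letters began 31 bases before the start of Prss34 and 46 before that of Cpa3, and were not in the 250 bases of Mcpt8. Of all 32851 promoters of this length in the table, 9.99% held them. A match is a description of the letters and not a bound site. No stretch of 50 bases in the transcripts of the 3 genes occurred in a transcript of another gene, so reads of that length would not have been divided with a copy.

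In B cells, Prss34 had 3, 10 and 2 UMIs (control, Ang II and B6.SLE123). Each of these UMIs stood alone in its own cell. None of the 15 cells held a UMI of Mcpt8, or of the 4 genes of the basophil rule. The share of B cells with a Prss34 UMI was 0.0231% (0.00477% to 0.0676%), 0.0878% (0.0421% to 0.161%) and 0.0154% (0.00186% to 0.0554%), at median depths of 1798, 2780 and 1996 UMIs. In the cells that met neither rule, which include neutrophils, NK cells and monocytes, the shares were 0 of 2694 (which allows up to 0.111%), 0.0767% (0.00929% to 0.277%) and 0.0549% (0.00664% to 0.198%), at median depths of 1428, 2079 and 1397 UMIs. The intervals for B cells and for the other cells overlapped in each library. The other cells also included cells with 1 Cd79a UMI, which held both Prss34 UMIs of the B6.SLE123 library and 1 of the 2 of Ang II. By their markers, neutrophils held 0, 1 and 0 Prss34 UMIs, in 619, 638 and 641 cells, and NK cells and monocytes held 0. Whether the UMIs in B cells were free RNA or their own could not be told apart at this depth.

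The level of Prss34 in B cells was 0.107 CPM (UMIs per 1000000 UMIs of the class; 0.0221 to 0.313) in the control, 0.271 CPM (0.130 to 0.499) in the Ang II and 0.0577 CPM (0.00698 to 0.208) in the B6.SLE123 library. The log2 ratio of Ang II to control was 1.34, with an interval of -0.62 to 3.84 that includes 0. For B6.SLE123 against control both counts were at or under 3, and no fold is given. The difference was not detectable at this depth. With each cell thinned to 1000 UMIs, which left out 689, 429 and 1078 shallower B cells, the cells with a Prss34 UMI numbered 3 of 12280, 3 of 10956 and 0 of 11949.

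Prss34 UMIs in B cells were spread over the hashtags. The 6 control populations, C0301 to C0306, held 1, 1, 0, 0, 1 and 0 of them. The Ang II populations held 0, 1, 3, 4, 0 and 1, with 1 more in a cell without a hashtag. The B6.SLE123 populations held 0, 1, 0, 1, 0 and 0. The highest hashtag level was 0.559 CPM, from 4 UMIs among 2127 Ang II B cells of C0304, and Prss34 was at 0 in 9 of the 18 populations.

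The other 2 proteases were as scarce in B cells. Mcpt8 had 0, 3 and 2 UMIs there, or 0 (at most 0.132), 0.0814 and 0.0577 CPM. Cpa3 had 3, 2 and 0 UMIs, or 0.107, 0.0543 and 0 CPM (at most 0.106). No B cell held Prss34 and Mcpt8 together.

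RNA from a single free source keeps its genes in 1 proportion in every cell type of a library, so the proportions were set side by side. Over every barcode of a library there were 25.0 (21.8 to 28.5), 24.4 (22.6 to 26.4) and 17.4 (15.7 to 19.1) Mcpt8 UMIs per 100 Prss34 UMIs. In kept B cells the proportion was 0 (0 to 242), 30.0 (5.30 to 117) and 100 (7.25 to 1380). Each interval for B cells includes the value of its library, and each is wide because it rests on 3, 13 and 4 UMIs. Set beside kept basophils, with 74.4, 165 (91.9 to 303) and 13.5, the Ang II interval for B cells lay below the basophil value but overlapped its interval. The other intervals included their basophil values. A difference of B cells from either reference was not detectable. The other cells held 0, 2 and 2 Prss34 and 3, 1 and 21 Mcpt8 UMIs, so that the interval of the proportion began at 41.3 in the control library, ran from 0.847 to 960 with Ang II, and reached from 257 to 9237 around a value of 1050 in B6.SLE123. The control and B6.SLE123 intervals of the other cells lay above the values of their libraries, and 19 of the 21 UMIs of B6.SLE123 came from 4 cells.

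Genes of neutrophils gave a scale for free RNA in the same B cells. S100a8, a calcium-binding protein abundant in neutrophils, was found in 3.38%, 18.7% and 9.28% of B cells at 335, 412 and 470 CPM. Its UMIs there numbered 9378, 15176 and 16307. Doublets of a B cell and a neutrophil within 1 hashtag cannot be seen and could also hold such UMIs. The part of free RNA in them was not tested. This level was 7.32%, 4.07% and 7.25% of the CPM of S100a8 over the whole library. For Prss34 the same proportion was 0.420%, 0.473% and 0.131%. The library level takes in barcodes outside the limits, which held most Prss34 of both C57BL/6 libraries. Of the UMIs of kept cells alone, B cells held 7.14%, 31.2% and 0.0950% for Prss34 and 5.56%, 3.43% and 5.54% for S100a8. Prss34 stood lower than S100a8 by both measures in the B6.SLE123 library, while in the control and Ang II libraries the order turned with the barcodes used. Over a whole library S100a8 had 201878 to 597117 UMIs and Prss34 had 1125 to 3390.

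**Figure D1:**
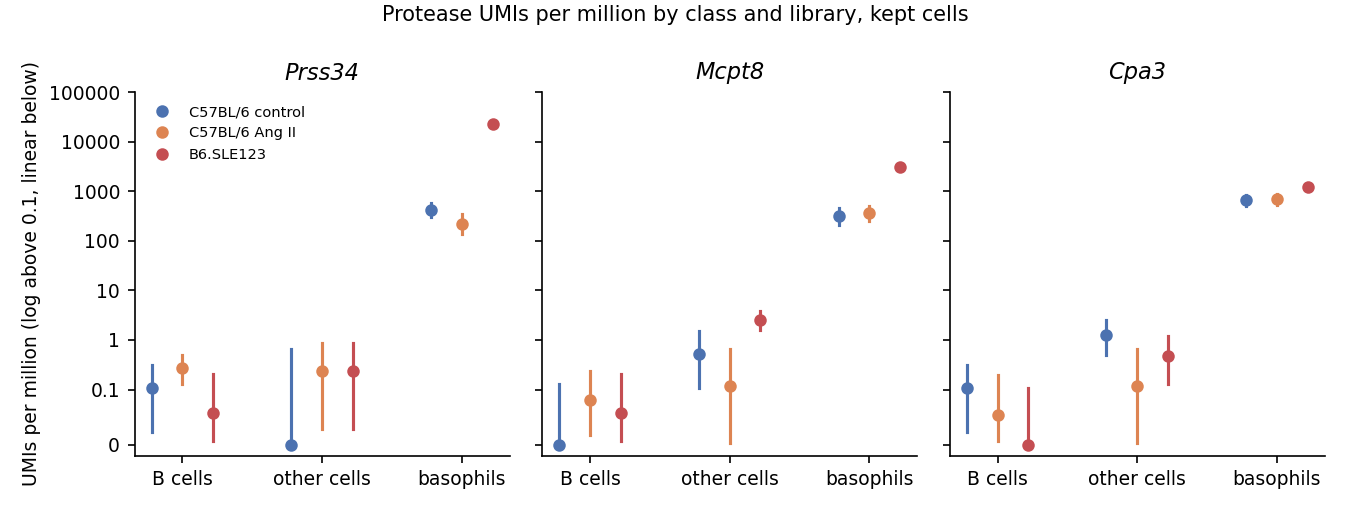
UMIs per 1000000 of Prss34, Mcpt8 and Cpa3 in B cells, other cells and basophils of the kept cells, with 1 point per library and exact 95% Poisson intervals (counting error only); the axis is logarithmic above 0.1 and linear below. Prss34 lay under 0.3 CPM in B cells and other cells of every library, and at 423, 222 and 22779 CPM in basophils.

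Basophils held the proteases. The label was checked on genes outside the rule: 30 of 34, 21 of 23 and 24 of 28 kept basophils had a UMI of Fcer1a, Cyp11a1, Hdc or Il4. Fcer1a, the IgE-binding chain of the receptor, was seen in 55.9%, 78.3% and 78.6% of them. The 4, 2 and 4 cells without such a UMI were large, with median depths of 7493, 10341 and 6055 UMIs, and held 0 UMIs of Prss34 and Mcpt8. Among kept basophils, 4, 1 and 4 met the rule on Gata2 alone. Counted only over the kept basophils with such a UMI, Prss34 stood at 619, 288 and 32105 CPM, above the levels of the whole class given below. Of 8 mast cell genes, only Kit was detected in kept basophils, with 7, 5 and 10 UMIs. Of 11 genes of the tryptase family of Prss34, which include its neighbours on chromosome 17, 0 were detected in basophils of any library.

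Kept basophils held 39, 20 and 2101 Prss34 UMIs. These were 423 CPM (301 to 578), 222 CPM (136 to 343) and 22779 CPM (21816 to 23775). They came from 3 of 34, 4 of 23 and 6 of 28 cells. The median basophil held 0 Prss34 UMIs in every library, and the highest held 32, 8 and 734. The log2 ratio of B6.SLE123 to control was 5.75 (5.30 to 6.25) and that of Ang II to control -0.93 (-1.79 to -0.12).

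Mcpt8 was spread over more basophils than Prss34. It had 29, 33 and 283 UMIs in 11, 13 and 17 cells, or 314, 366 and 3068 CPM, with a log2 ratio of B6.SLE123 to control of 3.29 (2.73 to 3.89) and of Ang II to control of 0.22 (-0.54 to 0.99). Every basophil with Prss34 also had Mcpt8, while 8, 9 and 11 basophils had Mcpt8 alone. The Mcpt8-only cells had at most 4, 5 and 8 Mcpt8 UMIs. In the B6.SLE123 library 90.8% of the Mcpt8 UMIs of basophils lay in the 6 cells with Prss34, compared with 51.7% for the control basophils and 33.3% for those of Ang II.

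Cpa3, which is part of the rule for basophils, had 61, 62 and 112 UMIs in 23, 16 and 21 of them, or 661, 688 and 1214 CPM. Its log2 ratio of B6.SLE123 to control was 0.88 (0.41 to 1.35). Prss34 and Mcpt8 were thus at least 2-fold higher in kept B6.SLE123 basophils and Cpa3 was not. Of all 505 genes with 50 or more UMIs over both libraries, 5.54% were at least 2-fold higher and 4.95% at least 2-fold lower. Since the genes were picked on such values, nothing is read from this count. Of 6 measured genes among 10 basophil genes, 0 were 2-fold higher or lower, with a median log2 ratio of -0.08 beside -0.07 over all genes. Gata2, Ms4a2 and Cd200r3 of that list are part of the basophil rule, which held up their levels in each library. For Ang II against control in kept basophils, 0 of the 3 proteases were 2-fold higher, where 4.45% of 517 genes were. Also 0 were 2-fold lower, where 4.06% of genes were.

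Basophils just inside the rule, with a sum of exactly 3, numbered 4, 1 and 4 and held 0 Prss34 and 1, 0 and 1 Mcpt8 UMIs. Cells just outside, with a sum of 2, numbered 9, 2 and 8 and held 0 Prss34 and 1, 0 and 7 Mcpt8 UMIs. Cells just inside the rule for B cells, with 2 Cd79a UMIs, numbered 589, 369 and 766 and held 1, 0 and 0 Prss34 UMIs, and those with 1 Cd79a UMI numbered 564, 533 and 683 and held 0, 1 and 2.

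By hashtag, the Prss34 of B6.SLE123 basophils lay in 2 populations. C0302 held 1299 UMIs in 9 basophils, all from 2 barcodes with 734 and 565 UMIs. These barcodes had 1 and 0 Cd79a UMIs, 0 UMIs of the B cell surface genes Cd79b and Ms4a1, 104 and 78 of Mcpt8, 21 and 15 of Cpa3, and 7 and 10 of Fcer1a. C0303 held 802 UMIs in 9 basophils, from 4 barcodes with 286, 254, 252 and 10 UMIs. The other 4 populations, with 0 to 2 basophils each, held 0. Without C0302 the log2 ratio of B6.SLE123 to control was 4.95, and without the control population C0305, which held 34 of the 39 control UMIs, it was 7.90.

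Most Prss34 of the C57BL/6 libraries lay outside the kept cells. Over every barcode the libraries held 1125, 3390 and 2788 Prss34 UMIs in 7, 23 and 16 barcodes, or 25.5, 57.4 and 43.9 CPM. Barcodes outside the limits on genes and mitochondrial share held 1083 (96.3%), 3333 (98.3%) and 2 (0.0717%) of these UMIs. Barcodes with several hashtags held 0, 25 and 681. The 53.9-fold higher level in kept B6.SLE123 basophils became 2.55-fold (a log2 ratio of 1.35, 1.24 to 1.46) when every barcode of the class was used. For Ang II against control the log2 ratio turned from -0.93 to 0.23 (0.13 to 0.34). This class left out barcodes that also met the B cell rule, which held 0, 1171 and 683 Prss34 UMIs. The Ang II class of 292378 UMIs took in barcodes with 69223 and 64867 UMIs that held 0 of Prss34, Mcpt8 and Cpa3. Taken over whole libraries, whatever the class, Prss34 was 2.25-fold higher with Ang II and 1.72-fold higher in B6.SLE123. The order of these libraries thus depended on the barcodes counted. In basophils, Mcpt8 moved likewise and stood at 1544, 1720 and 2202 CPM with every barcode. B6.SLE123 then exceeded control by a log2 ratio of 0.51 (0.27 to 0.76), and that of Ang II to control was 0.16 (-0.06 to 0.37). For Cpa3 the log2 ratio of B6.SLE123 to control turned from 0.88 to -0.28 (-0.62 to 0.07). That of Ang II to control went from 0.06 to -1.10 (-1.42 to -0.78), which is over 2-fold lower. The higher Prss34 of B6.SLE123 basophils therefore depended in its size on the limit of 3500 genes.

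**Figure D2:**
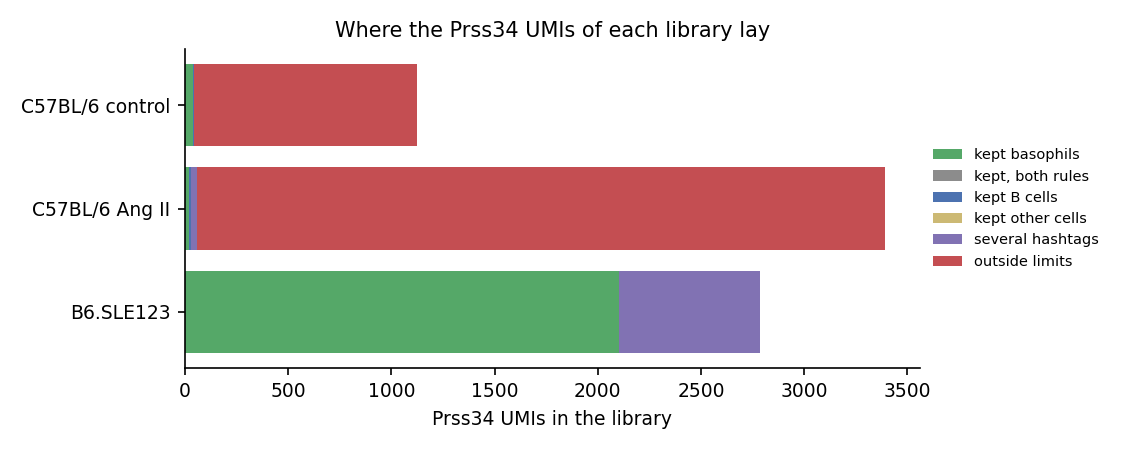
Prss34 UMIs of each library (horizontal axis), divided by where the barcodes stood: kept basophils, kept cells of both rules, kept B cells, kept other cells, barcodes with several hashtags, and barcodes outside the limits. Kept basophils held 3.47%, 0.590% and 75.4% of the Prss34 UMIs, and kept B cells at most 0.295%.

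The UMIs outside the limits came from few barcodes. In the control library 1 barcode of C0302 with 15931 UMIs and 3936 genes held all 1083 Prss34 UMIs, with 214 of Mcpt8 and 71 of Cpa3. In the Ang II library 3 barcodes held 1145 (C0302), 1100 and 1085 (both C0301) Prss34 UMIs, with 310, 160 and 302 of Mcpt8. They had 3616 to 4561 genes, and 17 to 24 UMIs of Mki67, a gene of dividing cells, of which the control barcode had 22. A limit on genes detected thus removed the 4 barcodes with the most Prss34 of all libraries.

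**Figure D3:**
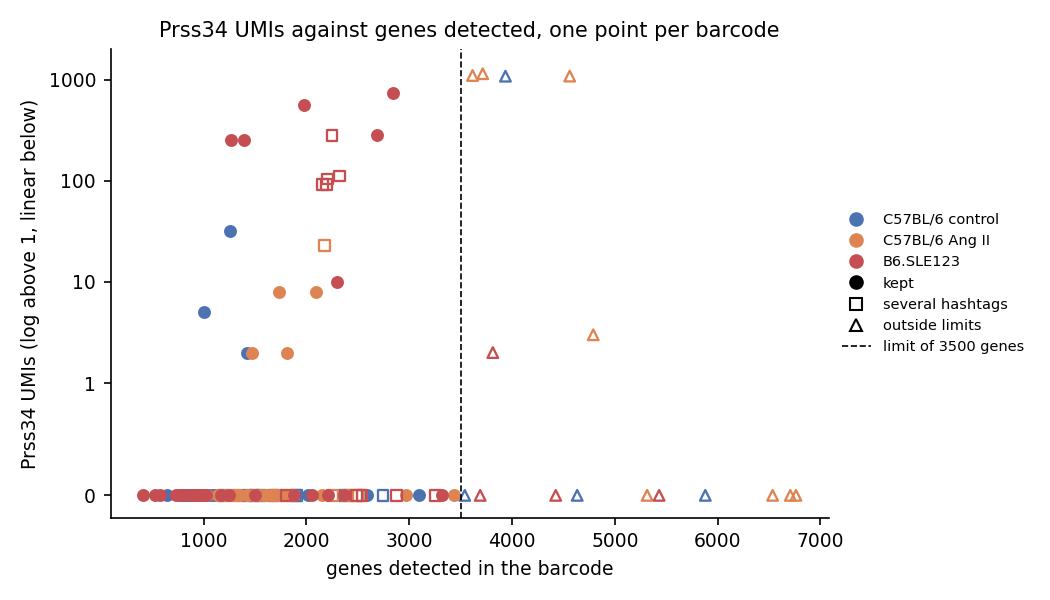
Prss34 UMIs (logarithmic above 1, linear below) against genes detected, for every barcode that met the basophil rule or held at least 2 Prss34 UMIs. Filled circles are kept cells, open squares barcodes with several hashtags and open triangles barcodes outside the limits; 4 triangles with 1083 to 1145 UMIs lie right of the dashed limit of 3500 genes.

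In all, 17 barcodes held 10 or more Prss34 UMIs (2 control, 4 Ang II and 11 B6.SLE123), and they accounted for 99.1%, 98.9% and 99.8% of the Prss34 of their libraries. All 17 met the basophil sum, and all 17 had UMIs of Mcpt8 and Fcer1a. Prss34 made up 0.139% to 10.5% of all UMIs of such a barcode. Of the 17, 7 were kept and had 0 or 1 Cd79a UMIs, 4 were outside the limits with 0 to 3, and 6 had several hashtags with 10 to 16. B cell transcripts thus stood beside abundant Prss34 chiefly in barcodes that carried the tags of more than 1 population.

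Of the 5 B6.SLE123 barcodes with several hashtags, 4 looked alike. They held 92, 92, 104 and 112 Prss34 UMIs, 25 to 30 Mcpt8 UMIs and 5392 to 6235 UMIs in all. All 4 also held the same 3 immunoglobulin kappa segments, Igkv3-10 (18 to 19 UMIs), Igkv9-120 and Igkv1-99. Among all 20691 barcodes of the library these 4 were the only ones with all 3 segments, which are seen in 4.52%, 3.08% and 0.507% of kept B cells. Whether they were 1 droplet read under 4 barcodes was not tested. Together they held 400 of the 2788 Prss34 UMIs.

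**Figure D4:**
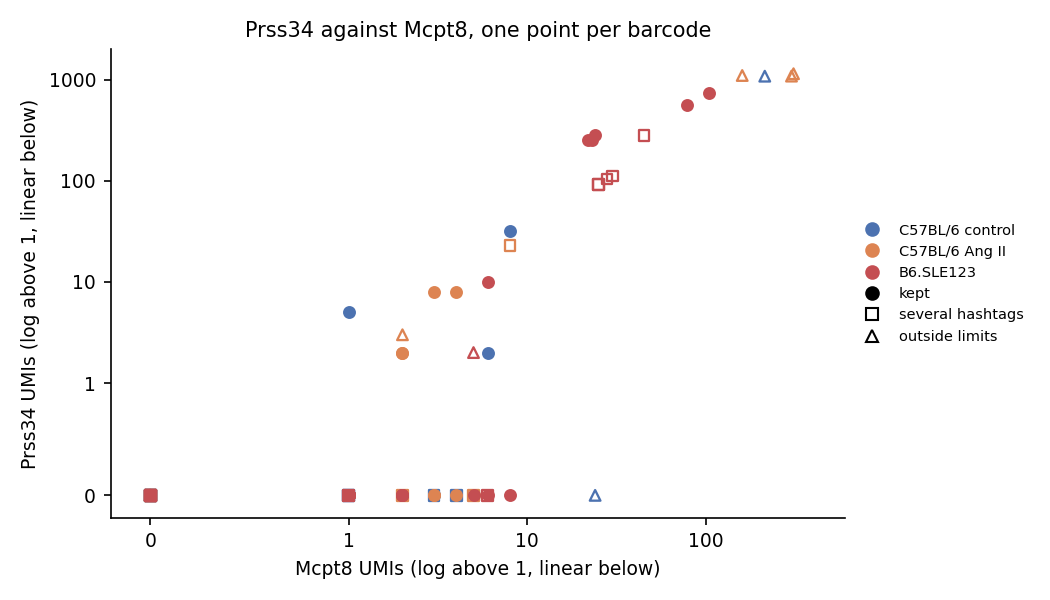
Prss34 against Mcpt8 UMIs for the same barcodes (both axes logarithmic above 1 and linear below), with colour for the library and symbols for kept cells, several hashtags and barcodes outside the limits. All 17 barcodes with 10 or more Prss34 UMIs held 6 to 310 Mcpt8 UMIs, while several barcodes with Mcpt8 held 0 Prss34.

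The proportion of the 2 proteases differed with the cells used. In kept basophils there were 74.4 (44.3 to 123), 165 (91.9 to 303) and 13.5 (11.9 to 15.3) Mcpt8 UMIs per 100 Prss34 UMIs. Over every basophil barcode, without those that also met the B cell rule, there were 24.1 (21.0 to 27.5), 22.8 (20.7 to 25.1) and 13.5 (11.9 to 15.3). The interval of the B6.SLE123 library lay below those of both C57BL/6 libraries in each case. It rested on the same 2101 Prss34 and 283 Mcpt8 UMIs both times. The B6.SLE123 barcodes that also met the B cell rule held 683 Prss34 and 171 Mcpt8 UMIs.

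To describe the cells rich in Prss34, the 11 barcodes with 10 or more Prss34 UMIs and up to 1 hashtag (2 control, 3 Ang II and 6 B6.SLE123) were set beside 71 basophil barcodes with 0 (31, 20 and 20), all with a UMI of Fcer1a, Cyp11a1, Hdc or Il4 and with no limit on genes. The first were larger, with medians of 7980 UMIs and 2689 genes compared with 2122 and 1101. Their part in the values that follow was not tested. Of 976 genes with 50 or more UMIs, 8.71% were at least 2-fold higher in the Prss34-rich barcodes and 13.9% at least 2-fold lower.

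Among granule genes, Mcpt8 was 28.6-fold higher (12596 against 440 CPM) and Cpa3, which helped to choose both sets, 3.01-fold higher. Ctsg, the gene of cathepsin G and the nearest listed gene to Mcpt8 on chromosome 14, was 6.19-fold higher. It was higher within each library, at 3696 against 53.3, 2501 against 925 and 2424 against 154 CPM. Ms4a3, a membrane gene of granulocyte and monocyte precursors, stood at 644 against 69.5 CPM, and was also higher within each. Of the 9 genes of the chymase family listed beside Mcpt8, 2 had enough UMIs, of which Ctsg was higher and Gzmb, the gene of granzyme B, lower at 40.3 against 1279 CPM. The Gzmb UMIs of the other set lay in 5 barcodes, and within the Ang II library the order was the other way, with 87.8 against 0 CPM. Elane, which encodes neutrophil elastase and was picked after its values were seen, was also lower, at 131 against 1029 CPM. Prg2, which encodes eosinophil major basic protein, had 602 UMIs, all in 1 barcode of B6.SLE123, and 0 in the other set.

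Of the 10 basophil genes, 6 had enough UMIs, of which 1 was 2-fold higher and 1 lower. All 6 helped to choose both sets, by the basophil sum or by the UMI of Fcer1a, Cyp11a1, Hdc or Il4. Such minimum counts weigh more in the shallower barcodes of the other set, so nothing is read from these ratios. Fcer1a was 2.72-fold higher, with 1863 against 686 CPM, and was higher within each library. Ms4a2, the receptor's beta chain, was 1.78-fold higher. Gata2 differed little, with 534 against 524 CPM. Cyp11a1, which begins steroid synthesis, was lower at 232 against 792 CPM. Hdc, which makes histamine, stood at 886 against 1117 CPM.

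The listed cycling genes with enough UMIs, Mki67 and Top2a, were higher over all libraries but not within each. Both measured cycling genes were over 2-fold higher: Mki67 stood at 826 against 51.0 CPM and Top2a, a topoisomerase of dividing cells, at 735 against 116 CPM. Mki67 stood at 1178 against 53.3 CPM among control barcodes and at 1272 against 0 CPM among those of Ang II. In the B6.SLE123 library the order was the other way, with 57 against 134 CPM for Mki67 and 285 against 346 CPM for Top2a. Of the 11 barcodes, 5 had 5 or more UMIs of Mki67 and Top2a together, and 4 of them were the barcodes outside the limits. Among the genes with the highest ratios were further the histone genes Hist1h1b (1782 against 60.2 CPM) and Hist1h2ap (4370 against 440 CPM), and the genes of the endoplasmic reticulum Sdf2l1 (614 against 69.5 CPM) and Manf (765 against 116 CPM). Hist1h1b, Sdf2l1 and Manf were higher within each library, while Hist1h2ap was lower within B6.SLE123, with 599 against 672 CPM.

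The 10 genes with the lowest ratios were Ccl4, Gzmb, Ltb, Cd7, Ccl6, H2-Eb1, Tmem71, Cd74, Slc2a3 and Klf2. Ccl4, a chemokine gene, had 0 UMIs in the Prss34-rich barcodes and 262 (1214 CPM) in 46 of the 71 others. Ccl6, a chemokine of myeloid cells, was lower at 513 against 7415 CPM. Within the libraries it stood at 0 against 8483, 176 against 7108 and 1226 against 6396 CPM. Cd7, a lymphoid surface gene, stood at 70.5 against 1335 CPM, and the antigen presentation genes Cd74 and H2-Eb1 at 161 against 1710 and 20.1 against 283 CPM. Ifitm1, an interferon-induced membrane gene, was lower at 1973 against 6159 CPM, and this held within each library.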

How the data were processed

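Gene and hashtag UMI counts per barcode were used as deposited. Per the file headers, the authors obtained these raw, unnormalized counts from Cell Ranger 6.0.0, on mm10 per the submitters' processing notes. Limits of over 200 and under 3500 genes and of under 15% mitochondrial UMIs were set on each barcode. As the limits on genes can also be read as limits on UMIs, that reading was tried as well. Hashtags were called above an Otsu threshold on log counts, and barcodes with several were removed. Doublets within 1 hashtag cannot be seen in this way, and no expression-based caller was run.

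The members, gene lists and class rules were chosen with earlier results of these data known. Genes named beside the members were those of the fixed lists and those with the highest and lowest log2 ratio between Prss34-rich and other basophil barcodes, a comparison chosen after the values were seen, as were the kappa segments. The rule to name genes in B6.SLE123 B cells with Prss34 was met by 27 genes. It was not used, since only 2 such cells (3596 UMIs) were found. Genes whose level followed Prss34 over the 18 hashtag populations of B cells are given in the closing section.

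Levels are UMIs per 1000000 UMIs of a class (CPM) with exact Poisson intervals, shares carry exact Clopper-Pearson intervals and ratios exact conditional intervals, all at 95% and for counting error only. Intervals of CPM differences between libraries were set from opposite ends of the intervals of both levels, and so are wider than 95% intervals. Beside shares of 0 stands the upper limit from 3 counts. Precision follows the UMIs: 44146350 to 63516694 per library, but 0 to 10 for a protease in B cells. The script for the intervals was tested on 20 simulated data sets with Poisson error only, where 94.8% to 97.6% of intervals covered the set value. Spread between cells was not simulated, so the test does not cover it. Of 32285 genes, 32158 matched GENCODE vM21 by identifier. No protein sequence was used here. Python 3.11.15, NumPy 2.4.6, SciPy 1.17.1 and pandas 2.3.3 were used. Further alternatives are in the closing section.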

Additional observations from a re-analysis of the deposited data

Results flagged for a closer look

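Prss34 in barcodes that the comparisons did not use stood above the same measure in the control library in 3 places. In the Ang II library, barcodes outside the limits on genes and mitochondrial share held 3333 Prss34 UMIs, compared with 1083 in the control library. Barcodes with several hashtags held 25 (Ang II) and 681 (B6.SLE123) Prss34 UMIs, compared with 0 (control). The 681 came from 5 barcodes, 4 of which shared 3 kappa segments and held 400 of these UMIs.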

How the results depend on the processing

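No paired analysis was possible because each group was 1 library and the results come from no test. In B cells, the differences of Prss34 and Mcpt8 from control and the proportion of both stayed within their intervals under the 10, 10, 10 and 7 alternatives tried, among them other Cd79a limits, size factors and control cells with a UMI of Xist. Most alternatives used the same few UMIs and the intervals were wide, so little is read from this. The share of B6.SLE123 B cells with a Prss34 UMI moved to 0 when cells were thinned to 1000 UMIs, and the proportion could then not be computed. The log2 ratio of Prss34 in basophils of B6.SLE123 to control moved from 5.75 to 4.29 with the limits read as UMIs. Under alternatives chosen after seeing the data it was 1.24 without limits per barcode and 1.35 over every barcode of the class. It was 7.70 without the barcode richest in Prss34 of each library. For Ang II against control it moved from -0.93 to -3.69 with the limits read as UMIs, and turned to 0.11, 0.23 and 0.85 under the 3 alternatives just named, in that order. The basophil share of B6.SLE123 against control had a log2 ratio of -0.37 (-1.14 to 0.40) and ranged from -0.55 to -0.35.

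Leaving out 1 hashtag population at a time gave ranges of 4.95 to 7.90 (Prss34 in basophils, B6.SLE123), -2.74 to 1.22 (Ang II; 1.22 without control C0305) and -0.70 to -0.03 (basophil share). In B cells the ranges were -0.072 to -0.030 CPM and 0.095 to 0.23 CPM (Prss34, B6.SLE123 and Ang II less control), 0.034 to 0.071 CPM (Mcpt8), 50 to 200 per 100 (proportion) and 0.0090% to 0.019% (share).

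Depth set the limits in B cells, where 0 to 10 UMIs of a protease among 11385 to 13027 cells could not show a difference between libraries. In basophils the number of cells, 23 to 34, and of mice did.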

Other observations

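Some Mcpt8 lay in cells that met neither rule. In the B6.SLE123 library 4 such cells held 2 or more Mcpt8 UMIs, 19 in all, with 0 UMIs of Prss34 and 0 of Cpa3 and a basophil sum of 0 to 2. The control library had 1 such cell and the Ang II library 0.

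Over the 18 hashtag populations of B cells, the genes whose log2(CPM + 1) had the highest Pearson correlation with that of Prss34 were Elp4 (0.73), Cdkl2 (0.71), 4930481A15Rik (0.71), Gabbr1 (0.70) and 3110001I22Rik (0.66). Prss34 had 14 UMIs in these populations and 0 in 9 of them, so the values are given as a description only.

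In basophils without limits per barcode, Gzmb had 276 UMIs in 5 of the 71 barcodes with 0 Prss34 and 4 UMIs in 2 of the 11 Prss34-rich barcodes. Kit had 44 UMIs in 7 of the 71 and 4 UMIs in 3 of the 11. Cma1, a chymase of connective tissue mast cells, had 20 UMIs, all in 1 barcode of the 71.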
